A study of Homo sapiens with 6 samples.

Results

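ER-phagy receptors are proteins that tie the endoplasmic reticulum (ER) to the autophagy machinery. The RNA of 9 of them was followed in HK-2 cells, an immortalised line from human kidney proximal tubule epithelium. The genes RETREG1, RETREG2, RETREG3, SEC62, RTN3, CCPG1, ATL3, TEX264 and CALCOCO1 were taken by symbol from a deposited table of 16116 genes. All 9 were listed, and all 9 passed the filter on low read numbers that left 12702 genes for testing. Bulk RNA-seq covered 3 wild-type (WT) libraries and 3 knockout (KO) libraries of the same line, and the labels name no treatment.

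The genotype label of each KO library is FAM134B-KO, FAM134B being the older name of RETREG1, and that of each WT library is WT. The title of the series also gives FAM134B as the disrupted gene, whereas its design text gives TAX1BP1. Nothing in the labels says whether the KO cells are 1 clone or several, how the gene was disrupted, or whether the libraries of a group came from separate cultures. The p-values therefore rest on a spread that may be technical. Because KO and WT cells are compared as lines, the disrupted gene and other differences between the lines cannot be told apart.

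The libraries held between 16796964 and 17127468 estimated reads. Among proximal tubule genes, PAX8, GGT1 and CDH6 were above 1 TPM (a level scaled to transcript length and library size) in every library. CDH6 averaged 46.5 TPM in WT and 8.32 TPM in KO cells, PAX8 228 and 271 TPM and GGT1 191 and 188 TPM. The differentiated tubule genes LRP2, CUBN, AQP1, SLC34A1 and ANPEP, together with PAX2, were at 0.11 TPM or less in every library. Summed epithelial genes (KRT8, KRT18, KRT19, CDH1 and EPCAM) ran from 1191 to 1262 TPM in WT and from 966 to 979 TPM in KO cells. KRT8 averaged 514 TPM in WT and 320 TPM in KO cells, KRT18 561 and 480 TPM and KRT19 5.34 and 0.067 TPM, whereas EPCAM averaged 145 and 174 TPM. CDH1 was at 0.05 TPM or less in every library. The part of these genes in the receptor results was not tested. Fewer cells of a type and less RNA per cell cannot be told apart in such bulk samples.

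In ER-phagy, a piece of the ER is enclosed by an autophagosome and delivered to the lysosome for degradation. A receptor holds the ER membrane or an ER protein at one end, and at the other it binds the ubiquitin-like ATG8 proteins (the LC3 and GABARAP families) on the growing autophagosome through a short stretch called the LC3-interacting region. RETREG1 and its relatives RETREG2 and RETREG3 bend the membrane through a reticulon homology domain and are best known for turnover of ER sheets. RTN3 and ATL3 act mainly on tubules, and SEC62 acts when an expanded ER is trimmed back after stress.

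The codons of the LC3-interacting region are shown because they are what the 3 RETREG paralogs share with SEC62 and TEX264, and each is written with its 4 core codons in capitals. They were read from GENCODE v29 transcripts on GRCh38 and not from the cells sequenced.
RETREG1: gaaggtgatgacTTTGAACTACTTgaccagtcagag
RETREG2: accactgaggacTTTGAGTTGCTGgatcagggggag
RETREG3: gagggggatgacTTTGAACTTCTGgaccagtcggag
SEC62: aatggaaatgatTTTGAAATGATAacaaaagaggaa
TEX264: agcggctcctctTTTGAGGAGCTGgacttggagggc
The RETREG1 stretch lies at chr5:16474849-16474884 on the minus strand, codons 455 to 458 of 497 being the core. The RETREG2 stretch is at chr2:219182459-219182494 (plus strand), that of RETREG3 at chr17:42581852-42581887 (minus strand), that of SEC62 at chr3:169992938-169992973 (plus strand) and that of TEX264 at chr3:51703879-51703914 (plus strand). RETREG1 and RETREG3 had the same base at 31 of 36 positions, and at 10 of 12 positions within the core. RETREG1 and RETREG2 matched at 22 positions, RETREG1 and SEC62 at 18, and RETREG1 and TEX264 at 14.

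RETREG1 has a second, inner promoter. Of its listed transcript models, NM_001034850 was placed nearest the outer start and NM_019000 at the inner start. The starts of its models XM_011514053 and XM_024446118 were not determined. RefSeq gives these 250 bases before each start on the minus strand of GRCh38.p14, promoter 1 at chr5:16616998-16617247 and promoter 2 at chr5:16508999-16509248. Capitals mark the only match to a searched motif.
RETREG1 promoter 1: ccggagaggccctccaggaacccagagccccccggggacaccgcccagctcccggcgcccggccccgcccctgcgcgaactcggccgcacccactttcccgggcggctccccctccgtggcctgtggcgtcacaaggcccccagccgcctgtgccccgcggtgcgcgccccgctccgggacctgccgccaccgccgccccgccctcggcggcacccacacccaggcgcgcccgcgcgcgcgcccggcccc
RETREG1 promoter 2: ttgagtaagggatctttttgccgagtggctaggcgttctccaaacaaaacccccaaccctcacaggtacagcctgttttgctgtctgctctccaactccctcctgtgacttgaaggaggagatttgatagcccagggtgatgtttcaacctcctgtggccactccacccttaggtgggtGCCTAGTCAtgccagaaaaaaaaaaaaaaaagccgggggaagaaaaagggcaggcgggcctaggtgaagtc
The starts are 107999 bases apart. Promoter 1 is 82.8% G or C and promoter 2 is 51.6%, against a median of 58% over 35116 RefSeq promoters. Searched on both strands were the E-box CACGTG of lysosomal genes, the antioxidant response element TGACNNNGC, the amino acid response element TGATGNAA and the AP-1 site TGAGTCA, which occur in 6.34%, 10.9%, 3.14% and 4.2% of those promoters. RETREG1 promoter 2 held 1 antioxidant-type match, GCCTAGTCA. Of the 11 promoter entries that matched 8 members, RETREG2 alone held others, with 2 E-boxes and 2 antioxidant-type matches in promoter 1, one of which overlaps an E-box, and 1 antioxidant-type match in promoter 2. A match is a description of the letters in this window. CALCOCO1 had no entry.

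The first question was whether RETREG1 RNA differed between the groups. RETREG1 fell in the KO libraries but was still counted in each. WT libraries held 72, 80 and 73 RETREG1 reads, and KO libraries held 33, 27 and 28. The groups did not overlap, and the fitted KO level was 39.7% of that in WT. Scaled to library size by TMM (CPM), the WT mean was 4.41 ± 0.227 and the KO mean 1.75 ± 0.194 (SD, n = 3 each). The log2 fold change, KO over WT, was -1.33 with a standard error (SE) of 0.176 and a 95% interval from -1.69 to -0.97. The quasi-likelihood test of edgeR gave an adjusted p of 5.31e-07. With 3 libraries a group, an exact permutation test (two-sided) cannot go below p = 0.1, and RETREG1 gave that value. On the log2(value + 1) scale of TPM and FPKM, which understates changes of low genes, the change was -0.84 and -0.64, and it was called there too.

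TAX1BP1, a cargo adaptor for ubiquitinated proteins, had a WT mean of 156 ± 6.30 CPM and a KO mean of 151 ± 9.46 CPM (SD, n = 3 each). The difference was -0.05 on the log2 scale, with a 95% interval from -0.16 to 0.06 and an edgeR adjusted p of 0.533, so the gene named in the design text did not pass the test. RNA levels do not show whether a frameshift removed a protein.

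Among the 9 receptor genes, 1 was higher in KO cells (RTN3), 2 were lower (RETREG1 and SEC62) and 6 did not pass the test. Over all 12702 genes, 36.8% were called, 18.7% higher and 18.1% lower. The CPM values of the groups did not overlap for 4 of the 9 genes, against 46.3% of all genes tested. The median log2 fold change of the 9 genes was -0.05, beside -0.000587 over all genes. A share of 3 in 9 is close to the background of calls.

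**Figure D1:**
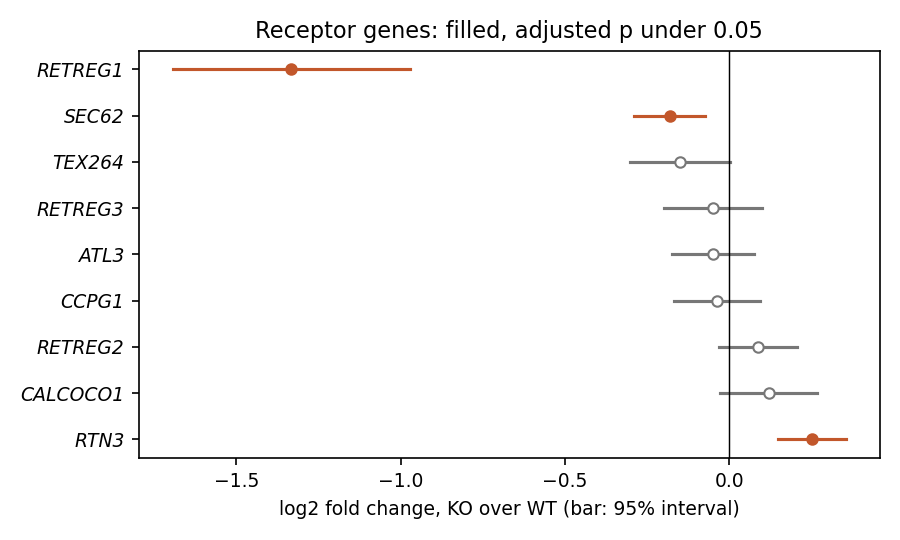
Log2 fold change (KO over WT) of each receptor gene, with points for the edgeR estimate, filled where called, and bars for its 95% interval. RETREG1 stands at -1.33, RTN3 at 0.25 and SEC62 at -0.18, and the intervals of the other 6 genes reach or cross 0.

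The RETREG family was followed next, since RETREG2 and RETREG3 share the domain and motif of RETREG1. RETREG2 had 1250, 1389 and 1391 reads in WT and 1352, 1443 and 1434 in KO libraries. The groups overlapped. The WT mean was 79.0 ± 4.95 CPM and the KO mean 83.9 ± 2.86 CPM (SD, n = 3 each), with a log2 fold change of 0.09 (95% interval -0.03 to 0.21, edgeR adjusted p = 0.258). RETREG3 had 522, 497 and 543 reads in WT and 506, 522 and 463 in KO libraries, and these groups overlapped too. Its log2 fold change was -0.05 (95% interval -0.20 to 0.10, edgeR adjusted p = 0.628). Neither interval reaches the size of the fall of RETREG1, or a rise above 0.21 on the log2 scale.

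Per length, RETREG1 was the lowest of the 3 paralogs in every library. It was at 2.84 TPM in WT cells on average, beside 44.6 TPM for RETREG2 and 16.4 TPM for RETREG3. RETREG1 therefore made up 4.46% ± 0.311 of the family's summed TPM in WT and 1.82% ± 0.263 in KO cells (SD, n = 3 each). The summed TPM of the family was 63.7 ± 3.81 in WT and 63.5 ± 2.26 in KO cells. RETREG2 held 69.8% ± 1.77 of that sum in WT and 73.9% ± 1.39 in KO cells.

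**Figure D2:**
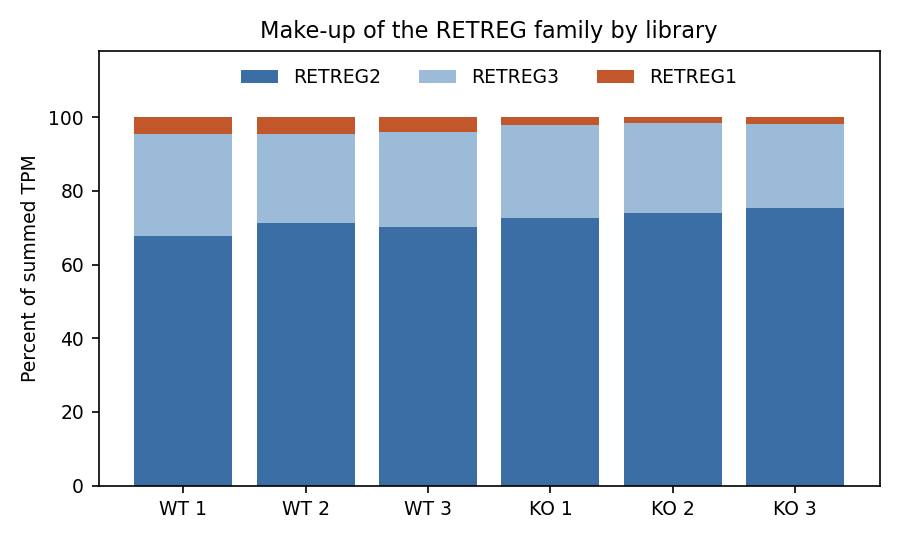
Stacked bars of the percent of the family's summed TPM held by RETREG2, RETREG3 and RETREG1 in each of the 6 libraries. RETREG2 holds 69.8% on average in WT and 73.9% in KO libraries, and RETREG1 holds 4.46% and 1.82%.

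RTN3, a reticulon whose long form has several LC3-interacting regions and acts in turnover of ER tubules, rose. WT libraries held 3199, 3138 and 2961 RTN3 reads, against 3801, 3603 and 3534 in KO libraries. All 3 KO libraries were above all 3 WT libraries. The level went from 182 ± 5.92 to 217 ± 8.62 CPM (SD, n = 3 each), a 1.19-fold difference. The log2 fold change was 0.25 (SE 0.051, 95% interval 0.15 to 0.36, edgeR adjusted p = 0.000223). A rise of this size or more was met in 15.4% of all genes tested.

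SEC62, a subunit of the translocation machinery that also binds LC3, fell. It had 2536, 2491 and 2428 reads in WT and 2292, 2142 and 2061 in KO libraries. Every KO library lay below every WT library. The mean fell from 146 ± 2.41 CPM to 129 ± 7.20 CPM (SD, n = 3 each), or 88.2% of WT. The log2 fold change was -0.18 (SE 0.053, 95% interval -0.29 to -0.07, edgeR adjusted p = 0.00770), and 20.9% of all genes fell at least as far. The adjusted p was closest to the threshold without KO replicate 2, at 0.049996.

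TEX264, a single-pass ER membrane protein that binds LC3 and GABARAP proteins, lay between the called and the uncalled genes. It had 467, 510 and 495 reads in WT and 401, 460 and 449 in KO libraries. In CPM the groups were just separate, the lowest WT library being at 27.40 and the highest KO library at 27.36. The log2 fold change was -0.15 (SE 0.074, 95% interval -0.30 to 0.0014, edgeR adjusted p = 0.115). With limma on log2(TPM + 1) the change was -0.20 with an adjusted p of 0.0283, so the call differed between methods.

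The remaining 3 receptors did not pass the test. CCPG1, a membrane receptor that binds both ATG8 proteins and the initiation protein RB1CC1 and is a target of the unfolded protein response, averaged 65.2 ± 3.29 CPM in WT and 63.5 ± 5.36 CPM in KO libraries (SD, n = 3 each). ATL3, an atlastin GTPase that fuses ER tubules and binds GABARAP, averaged 103 ± 6.20 and 99.6 ± 8.02 CPM. CALCOCO1, a soluble receptor that reaches the ER by binding VAPA and VAPB, averaged 26.4 ± 0.282 and 28.7 ± 1.76 CPM. The groups overlapped for all 3 genes. Their 95% intervals were -0.17 to 0.09 for CCPG1, -0.17 to 0.08 for ATL3 and -0.03 to 0.27 for CALCOCO1 on the log2 scale, with edgeR adjusted p of 0.690, 0.561 and 0.207.

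RETREG2, RETREG3, CCPG1 and TEX264 overlap other listed genes on the chromosome. CNPPD1, TUBG1 and PIGB lie on the opposite strand to RETREG2, RETREG3 and CCPG1, and RAD54L2 lies on the same strand as TEX264. CCPG1 also shares sequence with a read-through transcript, and it was the only receptor gene whose estimated reads were not whole numbers. The annotation also places antisense RNAs over RETREG1, SEC62 and ATL3. The strand setting of the counting is not given in the sources used here, so reads in the shared stretches cannot be assigned by strand. For pairs on the same strand, such a setting would not separate them.

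The receptors differed in level far more than they differed between the groups. In WT cells the order by mean TPM was RTN3 at 149, TEX264 at 51.0, SEC62 at 48.9, RETREG2 at 44.6, CCPG1 at 29.0, ATL3 at 28.6, CALCOCO1 at 17.3, RETREG3 at 16.4 and RETREG1 at 2.84. TEX264 and SEC62, SEC62 and RETREG2, CCPG1 and ATL3, and CALCOCO1 and RETREG3 overlapped between libraries, so these neighbours did not differ beyond their spread. RTN3 was 2.92 times TEX264, and RETREG3 was 5.76 times RETREG1. In KO cells RTN3 was at 175 TPM and RETREG1 at 1.15 TPM, and the ends of the order were as in WT. RETREG2 at 46.9, TEX264 at 44.3 and SEC62 at 41.8 TPM followed RTN3 there, and those neighbours overlapped.

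**Figure D3:**
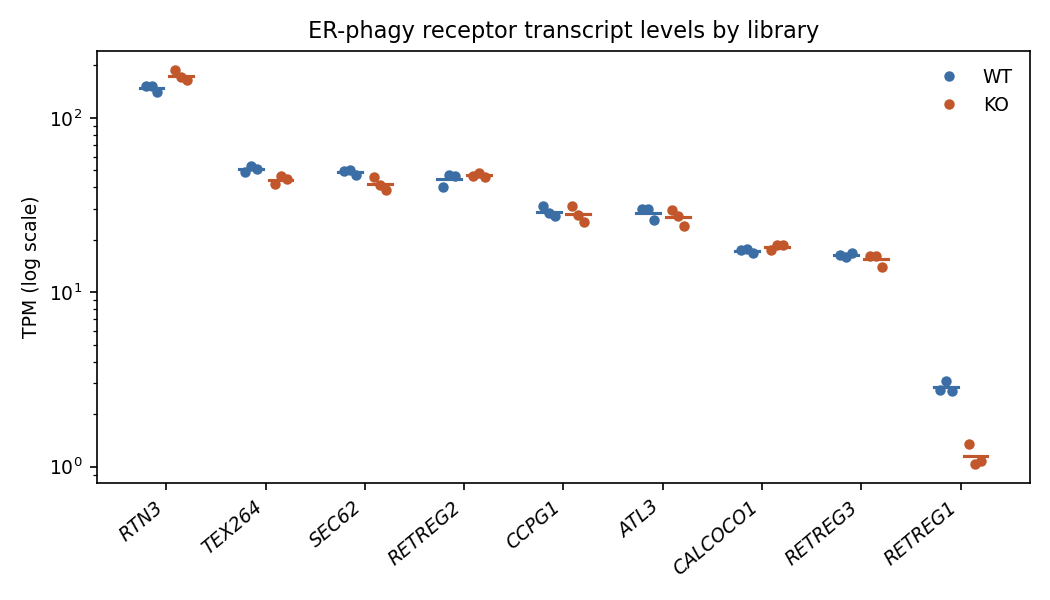
TPM of the 9 receptor genes in each of the 6 libraries, on a log axis, with points for libraries and lines for group means. RTN3 is the highest gene and RETREG1 the lowest in both groups, and the other 7 genes lie between them.

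The summed TPM of the 9 receptors was 387 ± 11.9 in WT and 397 ± 19.5 in KO cells (SD, n = 3 each), with WT libraries from 374.62 to 398.24 and KO libraries from 377.41 to 416.43. These ranges overlapped. RTN3 held 38.4% ± 0.913 of the sum in WT and 43.9% ± 0.983 in KO cells. Since each share depends on the other genes in the sum, these shares are a description.

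The deposited transcript table lists 44 transcripts of the 9 genes, of which 30 were tested. The edgeR test called 0 of them after adjustment over 44030 transcripts, beside 2.13% of all transcripts. At an unadjusted p under 0.05 there were 4, beside 12.4% of all transcripts. DESeq2 called 3 of the 30 (NM_019000 of RETREG1, NM_006054 of RTN3 and XM_011513114 of SEC62), beside 9.05% of all transcripts. Reads are split between transcripts of a gene by an estimate, and shares by transcript carry that estimate's error.

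RETREG1 reads were assigned mostly to NM_019000, whose start is at the inner promoter 2 printed above and which encodes the shorter form. It had 68.03, 74.01 and 60.70 reads in WT and 18.36, 20.62 and 16.60 in KO libraries. The groups were far apart. The log2 fold change of NM_019000 was -1.85 (SE 0.324, edgeR adjusted p = 0.0576). It held 90.0% ± 6.06 of RETREG1 reads in WT and 63.8% in KO cells. The long form NM_001034850, whose first base lies 61 bases from the start of promoter 1, has 423 more coding bases (1491 against 1068). This long form had 3.97, 5.99 and 0 reads in WT and 0 in each KO library. Another model, XM_011514053, was given 12.30 reads, all in WT replicate 3. XM_024446118 was listed at 0 in each WT library and at 14.64, 6.38 and 11.40 reads in the KO libraries, 36.2% of the gene. Both NM_019000 and NM_001034850 hold the LC3-interacting stretch printed above.

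The additional RTN3 reads in KO libraries were assigned to its short form. NM_006054, with 708 coding bases, had 2978.47, 2918.99 and 2757.78 reads in WT and 3580.57, 3408.90 and 3347.70 in KO libraries. It held 93.1% of RTN3 reads in WT and 94.5% in KO cells, with a log2 fold change of 0.26 (SE 0.048, edgeR adjusted p = 0.0646). The long models, taken as those with more than 1.5 times the reads per TPM of NM_006054, include NM_201428 with 3039 coding bases. Together they had 107.29, 88.17 and 71.56 reads in WT and 59.30, 62.60 and 43.63 in KO libraries, so that the summed reads did not overlap. Each model by itself overlapped between the groups, and those tested did not pass. NM_201428 had 64.14, 44.65 and 55.40 reads in WT and 52.72, 33.69 and 0 in KO libraries (edgeR adjusted p = 0.950). NM_001265590 had an edgeR adjusted p of 0.993, and the long models XM_017017091 and XM_011544730 were not tested. The share of RTN3 reads on all long models was 2.86% ± 0.471 in WT and 1.51% ± 0.255 in KO cells (SD, n = 3 each). That share was not tested. The model nearest to that limit, XM_017017092 at 1.35 times, is counted with the short forms.

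**Figure D4:**
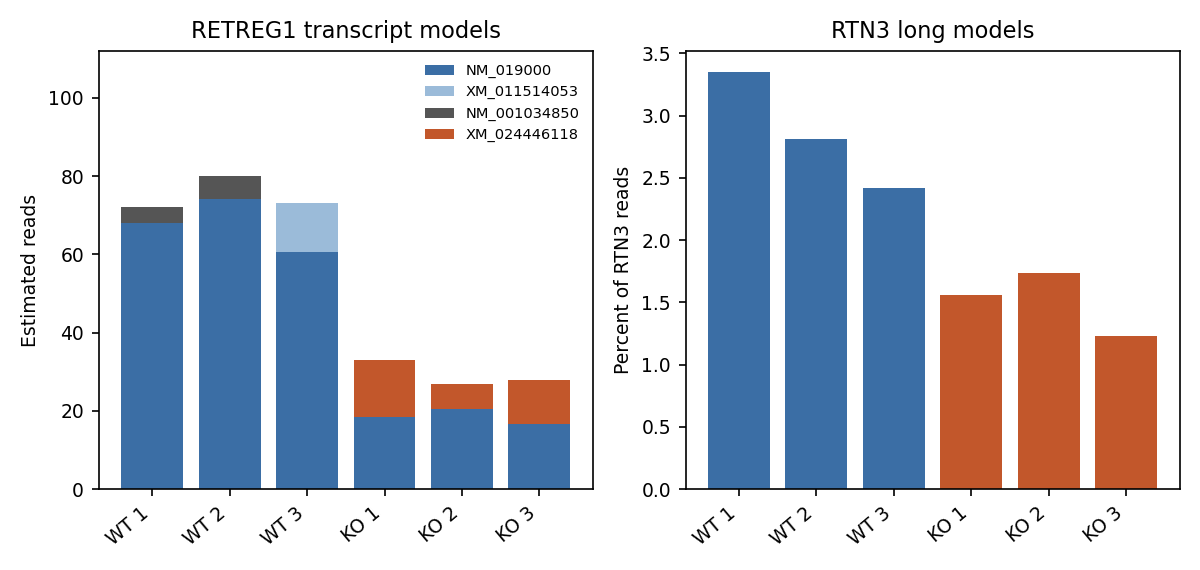
Stacked bars of estimated reads by transcript model in each library for RETREG1, and bars of the percent of RTN3 reads on long models (WT blue, KO orange). NM_019000 makes up most of the RETREG1 bar in WT and less in KO, and the long RTN3 models average 2.86% of reads in WT and 1.51% in KO libraries.

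Models of the other receptors did not pass the edgeR test either. Among them DESeq2 called only XM_011513114 of SEC62 (DESeq2 adjusted p = 0.0321). Among SEC62 models, XM_011513114 had 1440.51, 1574.97 and 1396.11 reads in WT and 1324.05, 1196.29 and 1075.46 in KO libraries, a log2 fold change of -0.29 (edgeR adjusted p = 0.263), while NM_003262 had -0.07 (edgeR adjusted p = 0.919). For ATL3, XM_006718493 held 17.1% to 19.3% of reads in WT and 21.8% to 27.2% in KO libraries. For CALCOCO1, XM_017019707 held 38.6% to 48.7% in WT and 25.2% to 34.2% in KO libraries. These ranges did not overlap, and neither model was called, with edgeR adjusted p of 0.508 and 0.380. Of the 17 receptor models with at least 10% of their gene's reads in either group, 6 had shares that did not overlap between the groups, beside 13.9% of 24230 such models of all tested genes. The 6 were NM_019000 and XM_024446118 of RETREG1, NM_015459 and XM_006718493 of ATL3, XM_017019707 of CALCOCO1 and NM_006054 of RTN3. XM_024446118 reached 10% only in KO cells and was at 0 in WT, so its separation follows from how it passed that limit. In KO libraries NM_019000 held all the other RETREG1 reads, so its separation is tied to that of XM_024446118. Shares of models of 1 gene depend on each other. Models of the remaining receptors, by share of reads, were NM_001204450 of CCPG1 (56.7% and 59.8%), NM_024293 of RETREG2 (50.4% and 45.6%), NM_178126 of RETREG3 (98.6% and 100%) and NM_015926 of TEX264 (70.2% and 66.9%), each given for WT and then KO. Other models with at least 10% of a gene's reads in either group were NM_015459 of ATL3 (81.4% and 75.2%), XM_011538601 and XM_017019709 of CALCOCO1 (46.3% and 54.7%, 8.18% and 12.7%), NM_020739 and NM_004748 of CCPG1 (31.4% and 29.0%, 11.8% and 11.0%) and XM_005246848 of RETREG2 (43.4% and 46.3%). None of these was called. Shares depend on the unit where models differ in length. By TPM, NM_001204450 held 72.2% and 74.8% of CCPG1, NM_020739 20.5% and 18.4%, and NM_004748 7.22% and 6.63%, and XM_005246848 held 56.4% and 59.3% of RETREG2 against 38.7% and 34.5% for NM_024293.

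A list of 36 partner genes was read beside the receptors: ATG8 proteins, relatives of the receptors, ER partners, and other reported receptors and regulators. Of these, 31 were tested, 5 were higher, 6 were lower and 20 did not pass, beside 18.7% higher and 18.1% lower over all genes. Their median log2 fold change was 0.00966, and 14 had groups that did not overlap, beside 46.3% of all genes. Both shares are near the background.

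Among the ATG8 proteins and the initiation protein RB1CC1, 5 of 8 were tested, with 1 higher and 1 lower. GABARAP, to which ATL3 binds, rose from 105 ± 3.88 to 124 ± 2.74 CPM (log2 fold change 0.25, edgeR adjusted p = 0.000438). MAP1LC3B, which encodes an LC3 protein, fell from 85.0 ± 4.52 to 76.7 ± 3.74 CPM (log2 fold change -0.15, edgeR adjusted p = 0.0451). Its adjusted p was near the threshold, and the groups were just separate. The lowest WT library was at 79.80 and the highest KO library at 79.56 CPM. RB1CC1, which starts autophagosome formation and is bound by CCPG1, had a log2 fold change of 0.07 and was not called.

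Of the receptors' relatives, 5 of 6 were tested and 1 was called. RTN4, a reticulon that shapes ER tubules, fell from 606 ± 10.8 to 493 ± 5.59 CPM (log2 fold change -0.30, edgeR adjusted p = 6.76e-06), while RTN3 rose. Of the ER partners, all 9 were tested, with 1 higher and 3 lower. REEP5, another tubule protein, fell from 89.6 ± 0.0811 to 69.8 ± 3.91 CPM (log2 fold change -0.36, edgeR adjusted p = 7.92e-06). SEC61B, a subunit of the channel that SEC62 works with, fell from 71.1 ± 4.84 to 58.3 ± 4.20 CPM (log2 fold change -0.29, edgeR adjusted p = 0.000757). LNPK, which stabilises tubule junctions, rose from 39.6 ± 2.26 to 48.8 ± 4.24 CPM (log2 fold change 0.30, edgeR adjusted p = 0.00103). VAPA and VAPB, the ER anchors of CALCOCO1, had log2 fold changes of -0.01 each and did not pass.

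Among 13 other receptors and regulators, 12 were tested, with 3 higher and 1 lower. SQSTM1, which encodes p62 and binds ubiquitinated cargo, rose by 0.71 on the log2 scale (1175 ± 23.0 CPM in WT, 1916 ± 48.7 CPM in KO libraries, edgeR adjusted p = 8.88e-13). YIPF3, reported as a receptor for turnover of the Golgi, rose from 46.0 ± 1.16 to 70.4 ± 5.99 CPM (log2 fold change 0.61, edgeR adjusted p = 1.15e-08). It lies on chromosome 6, where the median log2 fold change of 645 tested genes was 0.26. The partners SEC63 and UFL1 lie there too, had log2 fold changes of 0.08 and -0.16, and were not called. The part of the chromosome in these changes was not tested. PGRMC1 fell from 108 ± 3.01 to 89.1 ± 4.68 CPM (log2 fold change -0.28, edgeR adjusted p = 0.000194). No receptor gene lies on chromosome 6, and on chromosomes 3, 5 and 11, which carry SEC62, RETREG1 and RTN3, the medians were -0.04, -0.04 and -0.02.

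**Figure D5:**
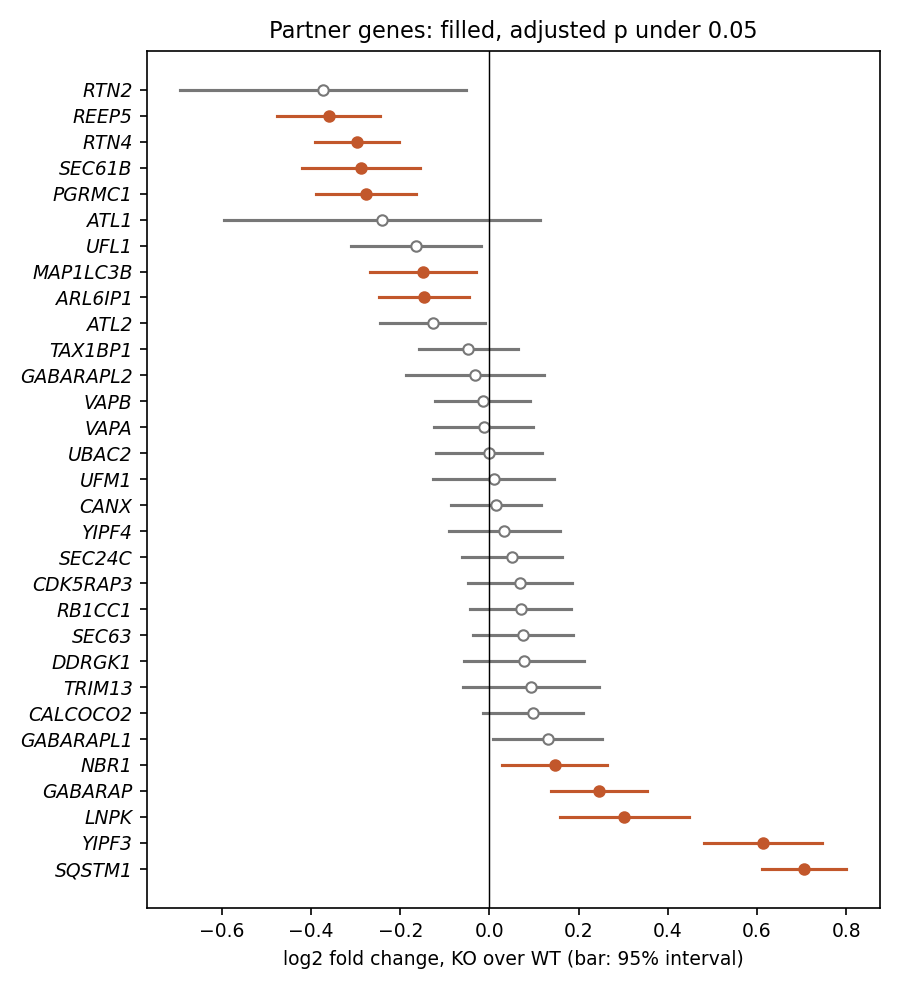
Log2 fold change (KO over WT) of the 31 tested partner genes in order of change, with points for the edgeR estimate, filled where called, and bars for its 95% interval. SQSTM1 at 0.71 and YIPF3 at 0.61 have the most positive values, and RTN2 at -0.37 (not called) and REEP5 at -0.36 the most negative.

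Other genes fell as RETREG1 did. At least as large a fall was seen in 243 other genes, 1.91% of those tested. By Euclidean distance between centred log2 CPM profiles over the 6 libraries, the nearest genes were KALRN at 0.175, EVA1A at 0.179, GPNMB at 0.192, CAVIN3 at 0.199 and RGS5 at 0.207. Their log2 fold changes lay between -1.42 and -1.20, which follows largely from choosing them by that distance.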

How the data were processed

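RNA was extracted with RNAiso Plus, per the labels' protocols. The submitters' processing notes list cutadapt 1.9.1, HISAT2 2.0.1, Cuffdiff 2.2.1, bcl2fastq 2.17.1.14 and FastQC 0.10.1, and build GRCh37. Neither read counter nor strand setting is given in the sources used here. The authors deposited estimated counts of reads, TPM values and FPKM values per library for 16116 genes and 79852 transcripts. Between 13.0% and 14.0% of estimated counts were not whole (tolerance 0.001) and were rounded. A further 12 columns of group means were not used.

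Genes were tested in R 4.3.3 with edgeR 4.0.16 (filterByExpr with minimum count 10 and total 15, TMM, robust quasi-likelihood test, Benjamini-Hochberg adjustment over all genes, threshold 0.05). SE was taken as the size of the log2 fold change divided by the root of F. Transcripts were tested likewise (44030). DESeq2 1.42.0, limma 3.58.1, other scalings and filters, a replicate block, shares of TPM in place of reads and leaving out each library were alternatives. The steps were tested on simulated data. Libraries within a group differed by more than sampling noise.

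The receptor genes and partner list were chosen with earlier results of these data known. Named were all receptor genes, their transcripts with at least 10% of reads in either group, TAX1BP1, the 4 called partners with the smallest adjusted p in each direction, and the 5 genes most like RETREG1. MAP1LC3B, RB1CC1, RTN2, VAPA, VAPB, SEC63, UFL1 and the minor RETREG1 and RTN3 models were named after their values were seen. RefSeq tables for GRCh38 gave names, chromosomes and gene neighbours. Part of the marker list is not reported here.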

Additional observations from a re-analysis of the deposited data

How the results depend on the processing

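RETREG1 was called lower under all 16 alternatives, with log2 fold changes from -1.43 to -0.64. SEC62 was called lower in 17 of 17 and RTN3 higher in 17 of 17. Receptor genes called lower numbered 1 under the filter of 5 CPM in 3 libraries, which removed RETREG1 from testing. TEX264 was called in 4 of 17, by limma and by the replicate block. Receptor transcripts called numbered 3 with DESeq2. Signs reversed for features that were not called when 1 library was left out. CCPG1 ranged from -0.10 to 0.020 (above 0 without KO replicate 3 and, at 0.000474501, without WT replicate 1), ATL3 from -0.10 to 0.013, NM_001204450 from -0.043 to 0.10, NM_004748 from -0.38 to 0.033, NM_024293 from -0.11 to 0.0061 and NM_178126 from -0.078 to 0.012. The cause was not tested.

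The partner genes called lower ranged from 4 to 8 when 1 library was left out. Without chromosomes 1, 4 and 6, an alternative chosen after seeing the data, 2 receptor genes were lower and 1 higher. With the replicate block, 3 receptor genes were called lower and 1 higher, RETREG1 was at -1.33, and 9 partner genes were lower. That block called 46.8% of all genes, beside 36.8% in the main test. The pairing check gave correlations of 0.156, 0.0134 and 0.113 between same-numbered libraries. Differently numbered libraries gave -0.156 to 0.0548. The main test did not take the numbers as pairs, and the check does not settle whether they are. With 72 to 80 WT reads, RETREG1 has the largest SE of the 9 receptor genes, 0.176.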
